A study of Mus musculus with 15 samples.

Results

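Oxidative phosphorylation genes were followed through kidney fibrosis in mouse, as 95 nuclear genes out of 18193 genes read on the array. They were taken by symbol, as the probe sets of 1 gene whose platform symbol begins with Nduf and the letter a, b, c, s or v, with Cox4 to Cox8, Uqcr, Sdh and the letter a, b, c or d, or Atp5, together with Cyc1. Each gene was read from its probe set of highest mean signal. The list holds 34 subunits of complex I, 4 of complex II, 9 of complex III, 10 of complex IV and 17 of complex V, which make 74 widely expressed subunits. A further 12 are assembly factors of complexes I and II, and 9 are tissue isoforms or paralogues of complex IV subunits. All 95 passed the filter on dim signal and were tested among 16864 genes.

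The study used mice of mixed C57/129sv background and of both sexes that carry the Col1a1-eGFPL10a transgene, a fusion of green fluorescent protein with ribosomal protein L10a placed behind the promoter and enhancer of collagen 1α1. Kidneys were taken after sham surgery (day 0) or 2 or 5 days after unilateral ureteral obstruction, which ties off 1 ureter and leads to tubular injury and interstitial fibrosis. Translating ribosome affinity purification (TRAP) pulled down the tagged ribosomes, so the bound fraction is polysomal RNA enriched for cells that use the collagen promoter, labelled as pericytes and periarterial fibroblasts of the medulla, and the unbound fraction, labelled as kidney medulla, is the RNA left behind. The groups were bound day 0, bound day 2, bound day 5, unbound day 5 and unbound day 0, with 3 one-colour Affymetrix arrays each, and an unbound group at day 2 was not analysed here. Every group, day 0 included, carries the transgene, and the labels give the same wide age range to all, from postnatal day 14 to 300. Whether arrays of 1 group came from different animals is not stated in the labels, so the p-values cover only the spread among these arrays, which may be technical.

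The enzymes of oxidative phosphorylation sit in the inner mitochondrial membrane. Complexes I and II take electrons from NADH and succinate, complex III passes them to cytochrome c, complex IV hands them to oxygen, and complex V, the ATP synthase, uses the proton gradient that complexes I, III and IV build. Core subunits carry the catalytic centres, accessory subunits surround them, and a few complex IV subunits have isoforms with narrow tissue expression. In kidney the proximal tubule and the thick ascending limb are the cells known for dense mitochondria.

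Signals are given as log2 of the deposited value plus 1 after quantile normalization, called the log2 level, and a difference is the group named before 'against' minus the one named after it. Levels of different genes are not compared, because probe sets differ in brightness. Within groups, correlations between arrays over all genes ran from 0.918 to 0.973. The spiked hybridization controls averaged 12114 to 12905 on 4 bright arrays, which are array 6 (unbound day 0), array 9 (bound day 2), array 12 (bound day 5) and array 15 (unbound day 5), against 4727 to 5864 on the other 11, so bound day 0 holds no bright array. Array 11 (bound day 5) had a 5′ to 3′ Gapdh ratio of 0.0269, against 0.178 to 0.583 on the others. Col1a1, the gene whose promoter drives the tag, had a log2 level of 11.61 ± 0.08 in bound day 0 and 9.18 ± 0.33 in unbound day 0, and 12.98 ± 0.08 in bound day 5 and 12.29 ± 0.10 in unbound day 5 (SD, n = 3 each). None of 12 fibroblast and 12 pericyte and smooth muscle markers averaged at or below the highest negative control. In sham kidney 8 of the fibroblast, 7 of the pericyte and smooth muscle and all 6 measured podocyte markers were higher in the bound than in the unbound fraction, where 4.81% of all genes were. Bound day 0 thus also carries podocyte RNA. In such bulk samples fewer cells of a type and less RNA per cell cannot be told apart.

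Promoter sequence was available in RefSeq (GRCm38.p6) for 78 of the 95 genes, as 83 windows of 250 bases before the transcript start. They were searched on both strands for the core of the site of NRF1 (GCATGCGC), a nuclear factor known to drive respiratory chain genes, for the core of the ETS and GABP site (CCGGAAG) and for the CCAAT box (CCAAT). The NRF1 core was in 8 of 83 windows, 9.64%, against 2.26% of all 32851 windows. The ETS core was in 16, 19.3%, against 6.91%, and the CCAAT box in 34, 41%, against 33.8%. A match is a run of letters and not a shown binding site. Shown here are 4 windows, read 5′ to 3′ on the gene's strand, of genes whose levels the results below turn on, with motif matches in capitals (a match on the other strand appears as GCGCATGC, CTTCCGG or ATTGG). They are Sdhb at chr4:140961021-140961270 on the plus strand, Atp5e at chr2:174464102-174464351 on the minus strand, Atp5b at chr10:128083057-128083306 on the plus strand and Cox6b2 at chr7:4753095-4753344 on the minus strand.
Sdhb promoter window: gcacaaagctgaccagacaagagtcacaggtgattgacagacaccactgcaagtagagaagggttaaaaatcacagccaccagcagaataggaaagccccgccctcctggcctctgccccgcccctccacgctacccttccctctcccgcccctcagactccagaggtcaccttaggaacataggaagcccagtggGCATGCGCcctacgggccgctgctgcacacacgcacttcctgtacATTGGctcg
Atp5e promoter window: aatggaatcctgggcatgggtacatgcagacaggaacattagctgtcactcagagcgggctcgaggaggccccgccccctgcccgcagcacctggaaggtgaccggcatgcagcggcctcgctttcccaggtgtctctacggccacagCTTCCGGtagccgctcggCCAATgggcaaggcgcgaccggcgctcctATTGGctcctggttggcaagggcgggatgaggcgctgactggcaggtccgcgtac
Atp5b promoter window: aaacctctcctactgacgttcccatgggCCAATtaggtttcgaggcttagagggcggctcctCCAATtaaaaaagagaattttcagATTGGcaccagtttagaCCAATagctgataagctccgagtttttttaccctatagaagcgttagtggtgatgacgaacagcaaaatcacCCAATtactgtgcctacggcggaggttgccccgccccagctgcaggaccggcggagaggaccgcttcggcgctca
Cox6b2 promoter window: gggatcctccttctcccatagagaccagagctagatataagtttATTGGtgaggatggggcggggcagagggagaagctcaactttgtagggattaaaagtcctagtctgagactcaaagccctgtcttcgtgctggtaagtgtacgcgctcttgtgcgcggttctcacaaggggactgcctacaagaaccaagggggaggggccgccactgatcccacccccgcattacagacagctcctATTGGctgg
The Sdhb window holds 1 NRF1 core and 1 CCAAT box, the Atp5e window 1 ETS core and 2 CCAAT boxes, the Atp5b window 5 CCAAT boxes and the Cox6b2 window 2 CCAAT boxes. Matches did not overlap in these 4 windows.

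Over all 95 genes, the unbound sham samples stood above every other group. The median deviation of the genes from their own mean over the 15 arrays was 0.45, 0.36 and 0.35 on the log2 scale on the 3 unbound day 0 arrays. On the other 12 arrays it lay between -0.53 and 0.08. The value of -0.53 belongs to array 7 (bound day 2), and without it the other groups lay between -0.19 and 0.08. The per-array median varied within groups by 0.147 (SD, log2).

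**Figure D1:**
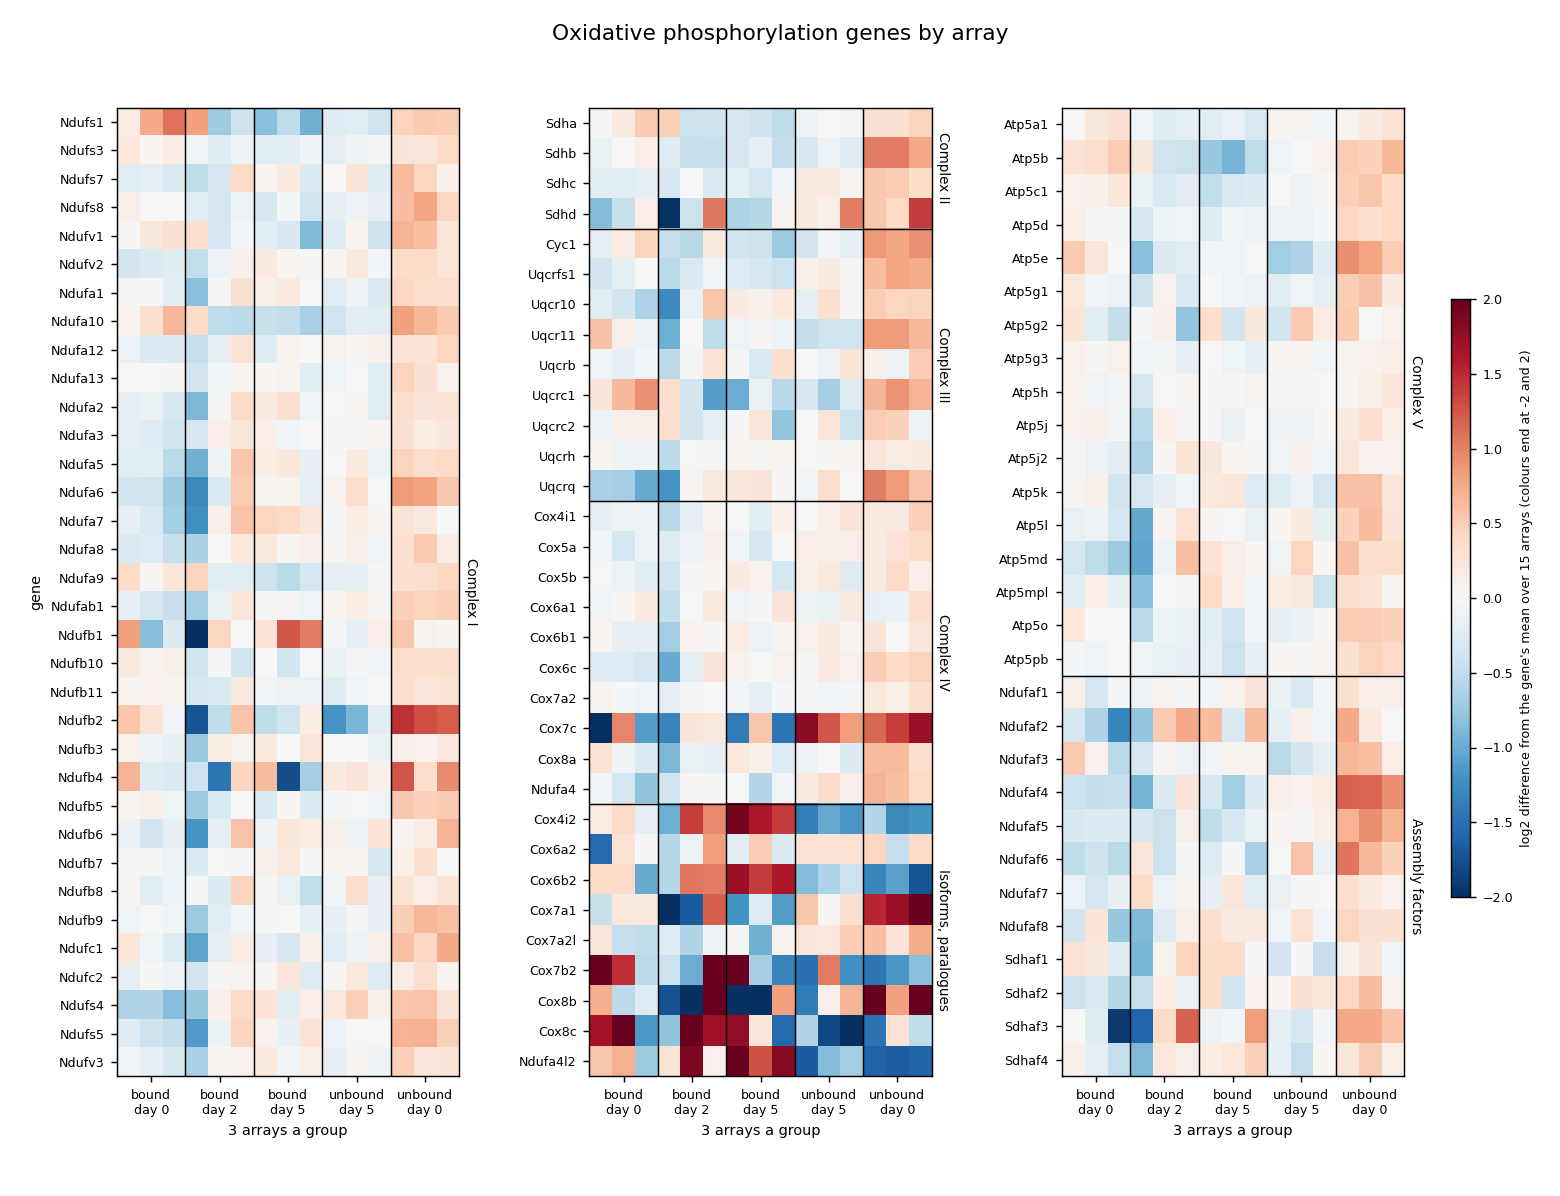
Log2 level of each of the 95 genes on each of the 15 arrays, as the difference from the gene's own mean over all arrays, in rows by complex and in columns by group (red above the mean, blue below). The unbound day 0 columns are mostly red for the subunits of complexes I to V, array 7 (first bound day 2 column) is mostly blue, and Cox4i2, Cox6b2 and Ndufa4l2 are reddest in bound day 5.

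In sham kidney, most oxidative phosphorylation genes had lower levels in the bound fraction than in the unbound fraction, but few passed the test. The bound minus unbound difference was below 0 for 88 of 95 genes, against 57.9% of all genes tested, with a median of -0.47 against -0.13 over all genes. In 70 genes the 3 bound and the 3 unbound arrays did not overlap, 66 of them with the bound arrays below, where 36.8% of all genes did not overlap and 22.1% did so with the bound arrays below. limma called 12 genes at an adjusted p under 0.05, or 12.6% of the list where 8.91% of all genes were called. Of these, 1 was higher in the bound fraction, where 4.81% of all genes were, and 11 were lower, where 4.10% of all genes were. An unadjusted p under 0.05 was reached by 44 genes, against 25.1% of all genes. The median difference was -0.51 for complex I, -0.81 for complex II, -0.60 for complex III, -0.44 for complex IV, -0.34 for complex V and -0.72 for the assembly factors. The proximal tubule markers summed to 25954 to 40340 signal units in bound day 0 and 34651 to 55908 in unbound day 0, and the thick ascending limb and distal tubule markers to 24124 to 41257 in bound day 0 and 39807 to 47053 in unbound day 0. The median bound minus unbound difference was -1.07 over 13 proximal tubule markers (1 called lower), -1.03 over 10 thick ascending limb and distal tubule markers (1 called lower) and -0.87 over 11 collecting duct markers (2 called lower). The part of tubule RNA in the difference of the respiratory genes was not tested.

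Complex II gave the lowest median. Sdhb, its iron-sulphur subunit, had log2 levels of 11.65, 11.79 and 11.92 in bound day 0, against 12.81, 12.80 and 12.56 in unbound day 0. The 2 groups lay apart by more than either spread, and Sdhb was 1.92-fold lower in the bound fraction (log2 difference -0.94 ± 0.18 SE, adjusted p = 0.00792). Sdhc, a membrane anchor, was lower by less (-0.68 ± 0.17, adjusted p = 0.0288), a call lost in 12 of 24 alternatives. Sdha, the flavoprotein that oxidizes succinate, differed by -0.12 and did not pass, nor did the other anchor Sdhd at -1.18, whose bound arrays ranged from 10.53 to 11.53.

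Complex I had 3 lower subunits of 34, or 8.82%, where 4.10% of all genes tested were lower. All 3 were among its 28 accessory subunits. Ndufs4, an accessory subunit whose loss causes Leigh syndrome in people, had log2 levels of 11.03, 11.06 and 10.80 in bound day 0 and 12.21, 12.23 and 11.91 in unbound day 0 (-1.15 ± 0.28, adjusted p = 0.0259). The others were Ndufa6 (-1.23, adjusted p = 0.0471) and Ndufab1, the mitochondrial acyl carrier protein (-0.79, adjusted p = 0.0442), whose calls were lost in 18 and 17 of 24 alternative settings. The call of Ndufs4 was lost in 9 of 24, without array 1, 2, 3, 4, 5 or 6 among them (highest adjusted p = 0.216). None of the 6 core subunits passed, and Ndufs1, the largest iron-sulphur subunit, differed by 0.18, the highest value in complex I, while Ndufv1, which binds NADH, differed by -0.32. Ndufs1 and Ndufv1 overlapped between the fractions.

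In complex III, Uqcrq, a small accessory subunit, had log2 levels of 10.39, 10.35 and 10.02 in bound day 0, against 12.05, 11.89 and 11.60 in unbound day 0. It was 3.02-fold lower in the bound fraction (-1.59 ± 0.32, adjusted p = 0.0104), and the Rieske iron-sulphur protein Uqcrfs1 was 1.86-fold lower (-0.90 ± 0.18, adjusted p = 0.0116). Cyc1, cytochrome c1, differed by -0.71 and Uqcrc1, core protein 1, by -0.14, and neither passed. In complex IV only Ndufa4, first placed in complex I and now counted as a complex IV subunit, was lower (-0.97 ± 0.24, adjusted p = 0.0268). The call of Ndufa4 was lost in 8 of 24 alternatives, that of Uqcrq in 4 and that of Uqcrfs1 in 3. No subunit of complex V passed, and its F1 alpha subunit Atp5a1 was level, at 13.47, 13.70 and 13.77 in bound day 0 and 13.53, 13.67 and 13.76 in unbound day 0 (-0.01).

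All 12 assembly factors, proteins that help build a complex without staying in it, differed by less than 0, and 3 passed, all for complex I. Of all genes tested, 57.9% differed by less than 0 and 4.10% were called lower. Ndufaf4 had log2 levels of 10.37, 10.32 and 10.34 in bound day 0 and 11.98, 11.95 and 11.73 in unbound day 0. It was 2.91-fold lower in the bound fraction (-1.54 ± 0.26, adjusted p = 0.00468), although its second probe set of similar brightness differed by only -0.39. Ndufaf5 (-1.07 ± 0.19, adjusted p = 0.00671) and Ndufaf6 (-1.21 ± 0.27, adjusted p = 0.0169) were lower as well, and Ndufaf5 was the gene of the 12 called here that passed under all 24 alternative settings. The call of Ndufaf4 ended with the mean of its probe sets (-0.96, adjusted p = 0.0629). Leaving out 1 array moved the count of 12 to 7 (array 1 or 2), 4 (array 4 or 5), 6 (array 6), 27 (array 7) or 19 (array 9), and leaving out the 4 bright arrays moved it to 2. Without the bright arrays 335 of all 16521 genes tested were called. Counts over all genes with 1 array left out are not given here, so those moves are not read as particular to the list.

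**Figure D2:**
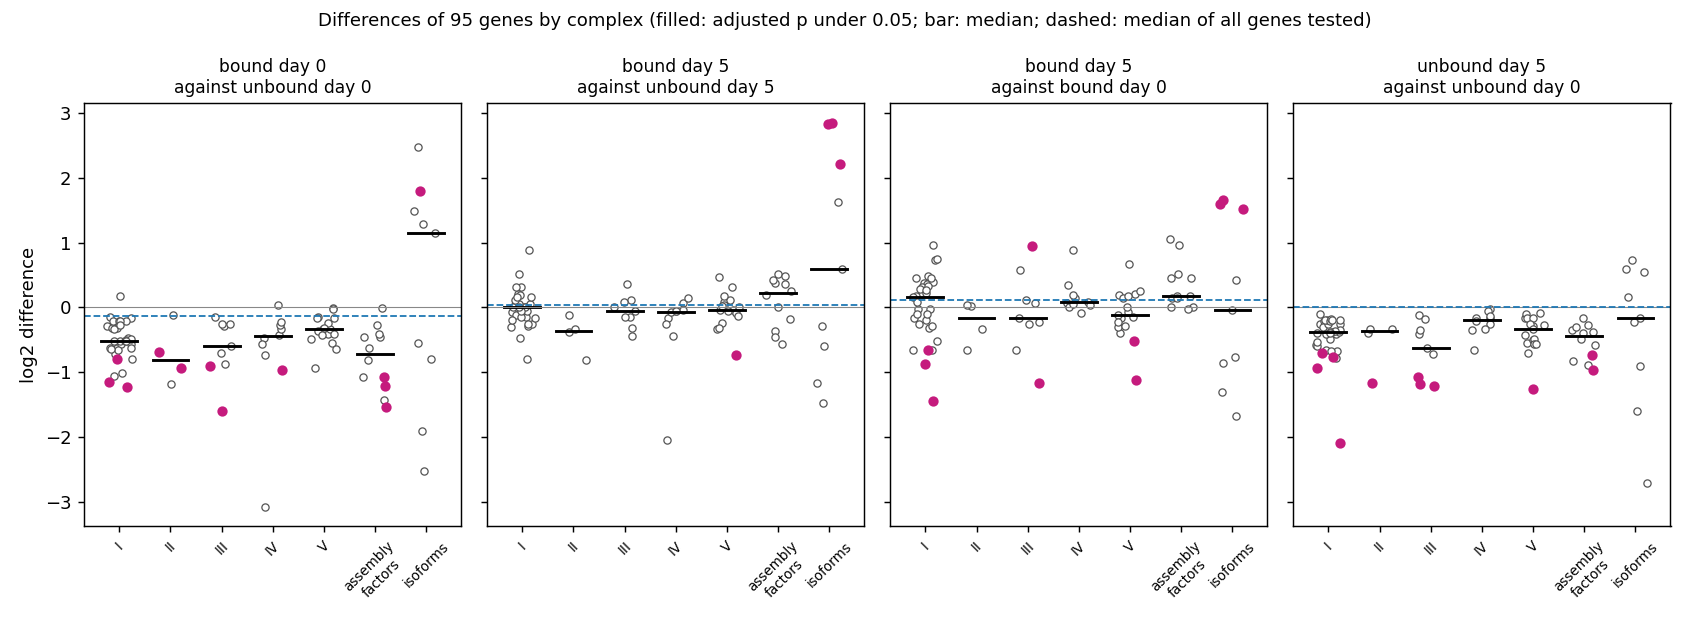
Log2 difference of each gene in 4 comparisons, by complex, with assembly factors and isoforms apart (filled points passed at an adjusted p under 0.05, black bars are medians, the dashed line is the median of all genes tested). Medians of complexes I to V lie between -0.81 and -0.34 in bound day 0 against unbound day 0 and between -0.36 and 0.00 in bound day 5 against unbound day 5.

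In the unbound fraction nearly all respiratory genes had lower values after obstruction, and 11 passed the test. In unbound day 5 against unbound day 0, 91 of 95 differences were below 0, all 74 widely expressed subunits among them, against 49.6% of all genes tested. The median was -0.38 against 0.01 over all genes. Groups did not overlap for 64 genes, 63 of them with day 5 below, where 45.9% of all genes did not overlap and 21.6% did so with day 5 below. limma called 11 genes, all lower at day 5, or 11.6% of the list, where 10.4% of all genes were called, 6.43% higher and 3.93% lower. An unadjusted p under 0.05 was reached by 31, against 24.3% of all genes. The median was -0.39 for complex I, -0.37 for complex II, -0.62 for complex III, -0.19 for complex IV, -0.33 for complex V and -0.44 for the assembly factors, and every one of these 6 groups kept a negative median with cyclic loess and with arrays centred on their medians.

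Sdhb had log2 levels of 11.46, 11.66 and 11.53 in unbound day 5, against 12.81, 12.80 and 12.56 in unbound day 0. It was 2.26-fold lower at day 5 (-1.17 ± 0.18, adjusted p = 0.00141), with no overlap, and the call held under all 24 alternatives. The other complex II subunits differed by -0.33 to -0.40 and did not pass. Complex III gave 3 of its 9 subunits, where 3.93% of all genes tested were lower. Uqcr11, its smallest accessory subunit, was lower (-1.21 ± 0.25, adjusted p = 0.00934), as were Cyc1 (-1.07 ± 0.24, adjusted p = 0.0137) and Uqcrc1 (-1.18 ± 0.34, adjusted p = 0.0471). The call of Uqcrc1 was lost in 15 of 24 alternatives and that of Cyc1 in 4. Cyc1 had log2 levels of 11.41, 11.72 and 11.58 in unbound day 5 and 12.65, 12.57 and 12.70 in unbound day 0, again without overlap.

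In complex V, Atp5e, the epsilon subunit of the F1 head, had log2 levels of 11.64, 11.74 and 12.09 in unbound day 5 and 13.26, 13.13 and 12.84 in unbound day 0. It was 2.39-fold lower at day 5 (-1.26 ± 0.23, adjusted p = 0.00493), a call that held under all 24 alternatives. Its probe set belongs to a class that can match several transcripts. The catalytic beta subunit Atp5b (-0.55) and the gamma subunit Atp5c1 (-0.50) did not pass here.

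Complex I had 4 lower subunits of 34, or 11.8%, where 3.93% of all genes tested were lower. Ndufb2, an accessory subunit of the membrane arm, had log2 levels of 9.49, 9.76 and 10.45 in unbound day 5 and 12.13, 11.96 and 11.88 in unbound day 0, with no overlap. It was 4.26-fold lower at day 5 (-2.09 ± 0.46, adjusted p = 0.0137), the most negative value among the 37 calls over all comparisons. Another probe set of Ndufb2 differed by -2.31, and its dim remaining one by -0.49. Ndufs8, an iron-sulphur core subunit (-0.76, adjusted p = 0.0174), Ndufa10 (-0.94, adjusted p = 0.0350) and Ndufb9 (-0.70, adjusted p = 0.0389) were lower too. The assembly factors Ndufaf4 (-0.97, adjusted p = 0.0341) and Ndufaf5 (-0.73, adjusted p = 0.0321) made up the 11. The calls of Ndufb9 and Ndufaf4 were lost in 11 and 10 of 24 alternatives, with a highest adjusted p of 0.521 and 0.323. Those of Ndufaf5, Ndufs8, Ndufa10 and Ndufb2 were lost in 8, 7, 7 and 3. Over the alternatives the difference of Ndufaf4 ran from -1.23 to -0.52. No complex IV subunit passed, and Cox4i1, the widely expressed isoform of subunit 4, had levels of 12.81, 12.91 and 13.06 in unbound day 5 and 13.01, 12.98 and 13.27 in unbound day 0.

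Beside these values, proximal tubule markers summed to 20781 to 28179 in unbound day 5 and 34651 to 55908 in unbound day 0, with 2 of 13 lower and a median difference of -1.92. Of all genes tested, 3.93% were lower and 6.43% higher in this comparison. Collecting duct markers had 6 of 11 lower (median -1.54), and 7 of 10 macrophage and monocyte markers were higher (median 2.27). Also higher were 7 of 12 fibroblast markers (median 1.98) and 7 of 12 pericyte and smooth muscle markers (median 1.66), so markers of collagen-producing cells were higher in this fraction too. Their part in the result was not tested. Leaving out 1 array moved the count of 11 to 3 (array 4 or 13), 4 (array 14), 5 (array 5, 6 or 15) or 22 (array 7, whose group is not compared here but shares the estimate of spread), and leaving out the bright arrays moved it to 3. Without the bright arrays 614 of all 16521 genes tested were called. With 1 array left out the counts over all genes are not given, so those moves are not read as particular to the list. A fit on the 2 unbound groups alone called 29 genes, all lower, where 4254 of all 16864 genes tested were called, 1967 of them lower.

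**Figure D3:**
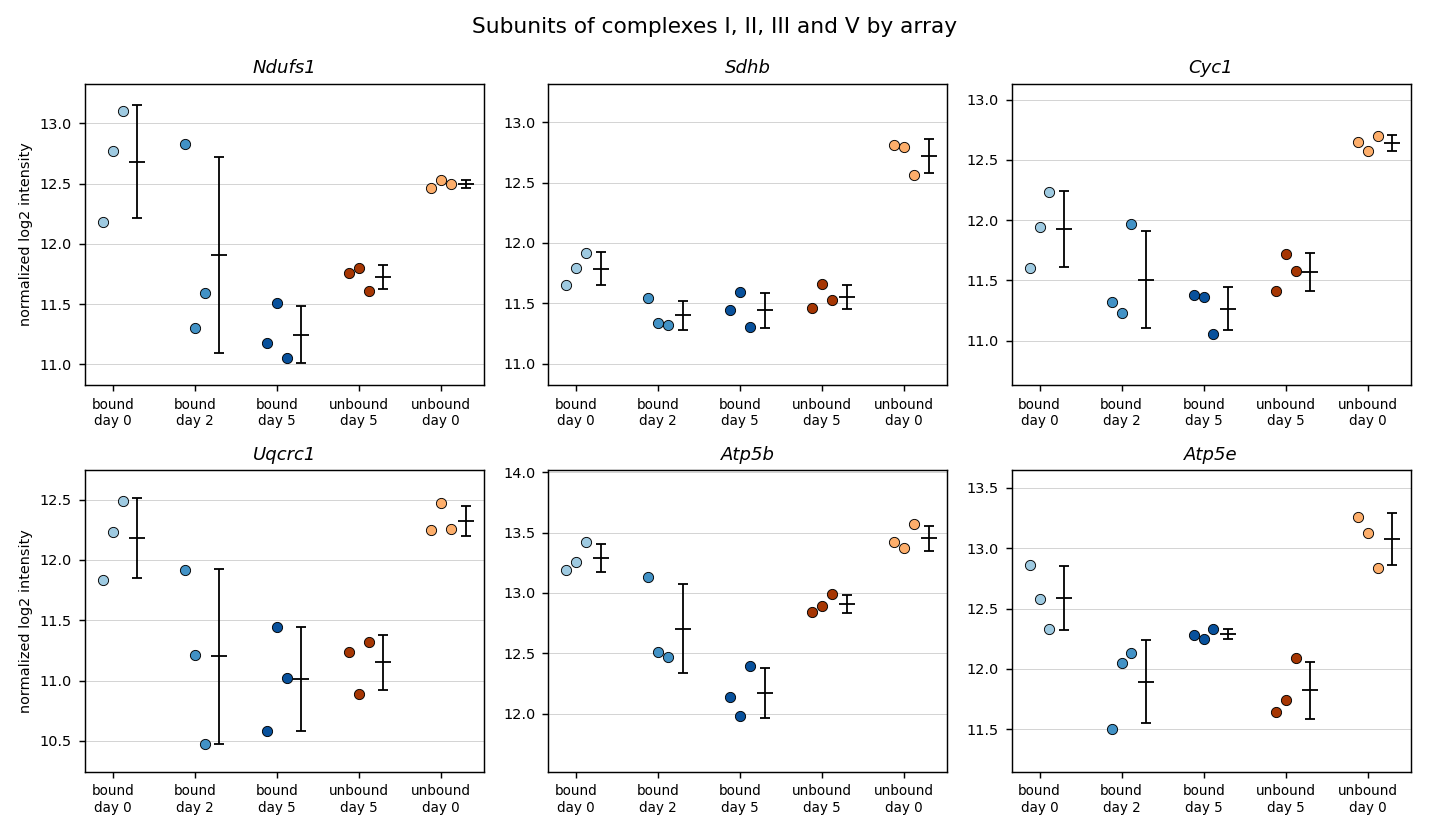
Log2 level of 6 subunits on each array (points) with the mean and SD of each group beside them (n = 3 each); each panel has its own axis. Sdhb, Cyc1 and Atp5e are highest in unbound day 0, and in Ndufs1, Uqcrc1 and Atp5b all 3 bound day 5 arrays lie below all 3 bound day 0 arrays.

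In the bound fraction the list as a whole had a median near that of all genes, with subunits called in both directions. At day 5 against day 0 the median difference was 0.07, against 0.12 over all genes tested, with 55 genes above 0 and 40 below, where 44.8% of all genes were below. limma called 10 genes, 4 higher and 6 lower at day 5, or 10.5% of the list, where 23.7% of all genes were called, 13.7% higher and 9.99% lower. An unadjusted p under 0.05 was reached by 16, against 36.7% of all genes. Groups did not overlap for 41 genes, 22 with day 5 above and 19 with day 5 below, where 40.4% of all genes did not overlap, 23.6% above and 16.7% below. With arrays centred on their medians the median of the list was 0.51, where that of all genes was 0.34, and 3 genes were higher and 1 lower. Of all 16860 genes tested with that centring, 2406 were higher and 1092 lower.

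The 6 lower genes were subunits of complexes I, III and V. Atp5b, the catalytic beta subunit of ATP synthase, had log2 levels of 13.13, 12.51 and 12.47 in bound day 2 and 12.14, 11.98 and 12.39 in bound day 5, against 13.19, 13.26 and 13.42 in bound day 0. Both obstructed groups lay below bound day 0, and at day 5 Atp5b was 2.17-fold lower than at day 0 (-1.12 ± 0.21, adjusted p = 0.00319). That call ended only with arrays centred on their medians (-0.70, adjusted p = 0.0782). Atp5c1, the gamma subunit that turns inside the head, was lower by less (-0.51 ± 0.16, adjusted p = 0.0397). Its call was lost in 16 of 24 alternatives, and with arrays centred on their medians its difference was 0.01. All 5 F1 subunits differed by less than 0 at day 5 (median -0.40), as they did at day 2 (median -0.37), when all 5 lay without overlap below day 0, where 10.0% of all genes did so, but none passed. With arrays centred on their medians the F1 median at day 5 against day 0 turned to 0.18.

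Ndufs1 had log2 levels of 12.83, 11.30 and 11.59 in bound day 2 and 11.18, 11.51 and 11.05 in bound day 5, against 12.18, 12.77 and 13.10 in bound day 0. Array 7, the first of bound day 2, sat among the day 0 values while the other obstructed arrays lay below them. At day 5 Ndufs1 was 2.70-fold lower than at day 0 (-1.44 ± 0.35, adjusted p = 0.0130). The call ended without array 3 and without the bright arrays, with a highest adjusted p of 0.0847. Ndufa10 (-0.88, adjusted p = 0.0270) and Ndufa9, which has an NADPH-binding fold (-0.65, adjusted p = 0.0373), were the other lower complex I subunits. The call of Ndufa9 was lost in 17 of 24 alternatives, over which its difference ran from -0.73 to -0.24, and that of Ndufa10 in 8, with differences from -1.03 to -0.46. Uqcrc1 had levels of 10.58, 11.44 and 11.02 in bound day 5 and 11.83, 12.23 and 12.49 in bound day 0 (-1.17 ± 0.34, adjusted p = 0.0278). Its call was lost in 7 of 24 alternatives, with a highest adjusted p of 0.123.

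The 4 higher genes were Cox4i2, Ndufa4l2 and Cox6b2, described below, and Uqcrq, at 11.27, 11.29 and 11.06 in bound day 5 and 10.39, 10.35 and 10.02 in bound day 0 (0.95 ± 0.32, adjusted p = 0.0466). The call of Uqcrq was lost in 17 of 24 alternatives, with a difference of 0.05 as the mean of its probe sets. Accessory subunits of complex I had a median of 0.19 at day 5 against day 0 and its core subunits one of -0.31. With arrays centred on their medians the accessory median became 0.73 and the core median turned to 0.21. The assembly factors had a median of 0.18 with none passing. Beside these values, proximal tubule markers summed to 6719 to 12492 in bound day 5 and 25954 to 40340 in bound day 0, with 11 of 13 lower and no overlap. Thick ascending limb and distal tubule markers summed to 10899 to 14988 in bound day 5 and 24124 to 41257 in bound day 0, and podocyte markers to 5060 to 12367 in bound day 5 and 22037 to 39284 in bound day 0, with all 6 lower. All 3 sums lay apart between the groups. Of all genes tested, 9.99% were lower and 13.7% higher in this comparison. Collecting duct markers had 8 of 11 lower (median -2.40), endothelial markers 6 of 10 lower (median -2.01), and macrophage and monocyte markers 4 of 10 higher (median 1.49). The part of the marked cell types in the lower levels of Atp5b, Ndufs1 and Uqcrc1 was not tested. Leaving out 1 array moved the count of 10 to 4 (array 2), 1 (array 3), 6 (array 5, 13 or 15), 5 (array 6 or 11), 16 (array 7) or 2 (array 10 or 12), and leaving out the bright arrays moved it to 1. Without the bright arrays 2187 of all 16521 genes tested were called. As above, counts over all genes with 1 array left out are not given, so those moves are not read as particular to the list.

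Day 2 gave no calls. Of 95 genes none passed in bound day 2 against bound day 0, where 9.25% of all genes were called by limma, 5.60% higher and 3.65% lower. An unadjusted p under 0.05 was reached by 10, against 24.5% of all genes. With a trended, robust prior limma called 7 of the 95, and 1963 of all 16864 genes tested. The median difference was -0.07 against 0.00 over all genes, with 60 genes below 0, where 49.9% of all genes were. With arrays centred on their medians it turned to 0.03, where that of all genes was 0.04, with 42 genes below 0. The 12 genes without overlap all had day 2 below, where 21.5% of all genes did not overlap, 11.4% above and 10.0% below. Without array 7 the median was 0.10 and 10 genes passed, 5 higher and 5 lower. Without array 8 or without array 9, 1 gene passed. For fits with 1 array left out, counts and medians over all genes are not given here, so their values are not read as particular to the list. In bound day 5 against bound day 2 none passed either, where 0.587% of all genes were called by limma, 0.510% higher and 0.0771% lower. An unadjusted p under 0.05 was reached by 4, against 16.2% of all genes, limma called 1 without array 8, and 6 genes did not overlap, 4 above and 2 below, against 14.7% of all genes (9.49% above and 5.18% below). The median there was 0.14 against 0.09 over all genes, with 30 genes below 0 where 43.6% of all genes were, and it was -0.04 without array 7.

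At day 5 the list's median lay near 0 between the fractions, and 3 complex IV isoforms or paralogues were higher in the bound one. The median difference of bound day 5 against unbound day 5 was -0.04, against 0.03 over all genes tested, with 51 genes below 0 and 44 above, where 48.8% of all genes were below. Groups did not overlap for 32 genes, 12 with the bound arrays above and 20 below, where 43.0% of all genes did not overlap, 21.7% above and 21.3% below. By complex the median was 0.00 for complex I, -0.36 for complex II, -0.06 for complex III, -0.06 for complex IV, -0.04 for complex V and 0.22 for the assembly factors. limma called 4 genes, 3 higher and 1 lower in the bound fraction, or 4.21% of the list where 14.1% of all genes were called, 6.37% higher and 7.74% lower. An unadjusted p under 0.05 was reached by 6, against 30.3% of all genes. The median of the list turned with the scaling, to 0.09 with cyclic loess, where that of all genes was 0.04, and to 0.84 with arrays centred on their medians, where that of all genes was 0.41 and 4 genes of the list were higher and none lower. Of all 16860 genes tested with that centring, 1607 were higher and 759 lower. Under that centring the medians of complexes I to V lay between 0.45 and 0.92. The lower gene was Atp5b, at 12.14, 11.98 and 12.39 in bound day 5 and 12.84, 12.89 and 12.99 in unbound day 5 (-0.73 ± 0.21, adjusted p = 0.0384). Its call was lost in 13 of 24 alternatives, and with arrays centred on their medians its difference was 0.11. In the same comparison 4 of 13 proximal tubule markers (median -1.78), 7 of 10 thick ascending limb and distal tubule markers (-1.77), 5 of 11 collecting duct markers (-1.70), 5 of 10 endothelial markers (-1.83) and 4 of 10 macrophage and monocyte markers (-1.62) were lower in the bound fraction. Their part in the value of Atp5b was not tested.

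The change in enrichment, the bound minus unbound difference at day 5 minus that at day 0, tested whether that difference was unlike between sham and obstructed kidney. It does not measure the share of a gene's RNA on ribosomes. It was above 0 for 87 of 95 genes and had a median of 0.50, against 0.09 over all genes tested, of which 45.7% were below 0. None of the 95 passed in limma, where 0.0178% of all genes (3 genes, all above 0) were called, and 20 had an unadjusted p under 0.05, against 14.2% of all genes. A fit on the 4 groups of this comparison called 3, all above 0, where 338 of all 16864 genes tested were called, 194 of them above 0. Without array 7, 1 of the 95 was called, and the count over all genes in that fit is not given. Uqcrq had the lowest p, with a change of 1.67 ± 0.45 (adjusted p = 0.172), then Sdhb with 0.83 ± 0.25 (adjusted p = 0.201). With arrays centred on their medians the median was 1.25, where that of all genes was 0.53, with 1 gene below 0 and 51 at an unadjusted p under 0.05. Atp5b and Ndufs1 were among the 8 genes below 0, at -0.57 and -0.66. The median was 0.52 for complex I, 0.35 for complex II, 0.41 for complex III, 0.27 for complex IV, 0.30 for complex V and 0.79 for the assembly factors. The comparison shares its arrays with the others, so these values restate the differences given above. From day 0 to day 5 the list's median difference was -0.38 in the unbound and 0.07 in the bound fraction. Those of all genes tested were 0.01 and 0.12.

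Cox4i2, Ndufa4l2 and Cox6b2, alternative forms of complex IV subunits, had their highest means in bound day 5. Cox4i2, the isoform of subunit 4 best known from lung, had log2 levels of 7.54, 7.75 and 7.18 in bound day 0, 6.39, 8.75 and 8.31 in bound day 2 and 9.28, 8.98 and 8.77 in bound day 5, against 5.99, 6.36 and 6.20 in unbound day 5 and 6.78, 6.08 and 6.17 in unbound day 0. Bound day 5 lay above every array of the other groups. Cox4i2 was 7.10-fold higher in bound day 5 than in unbound day 5 (2.83 ± 0.48, adjusted p = 0.00474) and 2.86-fold higher in bound day 5 than in bound day 0 (1.52 ± 0.48, adjusted p = 0.0375). In sham kidney its difference of 1.15 did not pass (adjusted p = 0.156), and in the unbound fraction day 5 and day 0 differed by -0.16, which turned to 0.06 without array 4.

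Ndufa4l2, a paralogue of Ndufa4 known to be induced by hypoxia, had log2 levels of 9.54, 9.71 and 8.26 in bound day 0, 9.25, 10.86 and 9.07 in bound day 2 and 11.23, 10.26 and 10.81 in bound day 5. In the unbound fraction it had 7.33, 8.12 and 8.30 at day 5 and 7.39, 7.35 and 7.39 at day 0. It was the only gene of the 95 called higher in the bound fraction at both day 5 (7.20-fold, 2.85 ± 0.50, adjusted p = 0.00557) and day 0 (3.47-fold, 1.79 ± 0.50, adjusted p = 0.0444). The day 0 call was lost in 13 of 24 alternatives, with a highest adjusted p of 0.155. Bound day 5 was 3.02-fold above bound day 0 (1.59 ± 0.50, adjusted p = 0.0369).

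Cox6b2, the isoform of subunit 6b known from testis, had log2 levels of 10.36, 10.36 and 8.97 in bound day 0, 9.40, 11.03 and 10.99 in bound day 2 and 11.70, 11.37 and 11.59 in bound day 5. In the unbound fraction it had 9.11, 9.36 and 9.55 at day 5 and 8.67, 8.90 and 8.25 at day 0. It was 4.64-fold higher in bound day 5 than in unbound day 5 (2.21 ± 0.45, adjusted p = 0.0100) and 3.15-fold higher than in bound day 0 (1.66 ± 0.45, adjusted p = 0.0210). In bound day 2 the 3 isoforms varied widely, with SDs of 1.25 for Cox4i2, 0.99 for Ndufa4l2 and 0.93 for Cox6b2, and array 7 was the lowest for Cox4i2 and Cox6b2. Without array 8 the day 2 minus day 0 difference turned to -0.14 for Cox4i2 and -0.02 for Ndufa4l2.

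The 3 calls in bound day 5 against unbound day 5 held in 23 of 24 alternatives, and were lost without the bright arrays, which leaves 2 arrays in each group (adjusted p = 0.0834 for Cox4i2, 0.0830 for Ndufa4l2 and 0.102 for Cox6b2, with differences of 2.94, 3.04 and 2.35). None of the 16521 genes tested in that setting was called, so this loss is not particular to the 3 genes. The calls in bound day 5 against bound day 0 were lost in 11, 7 and 5 of 24 alternatives for Cox4i2, Ndufa4l2 and Cox6b2. Beside them, 7 of 12 fibroblast and 6 of 12 pericyte and smooth muscle markers were higher in bound day 5 than in bound day 0, where 13.7% of all genes were. Against unbound day 5, 7 and 7 of these markers were higher in bound day 5, where 6.37% of all genes were. The part of these cells in the result was not tested.

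The widely expressed paralogues gave smaller values. Cox4i1 had mean log2 levels of 12.66 ± 0.04 in bound day 0, 12.57 ± 0.30 in bound day 2 and 12.76 ± 0.16 in bound day 5, with 12.93 ± 0.13 in unbound day 5 and 13.09 ± 0.16 in unbound day 0 (SD, n = 3 each). Its bound minus unbound difference was -0.17 at day 5 and -0.42 at day 0. Cox6b1 differed by -0.07 at day 5 and -0.27 at day 0, and Ndufa4 by -0.44 at day 5. None of these values passed.

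**Figure D4:**
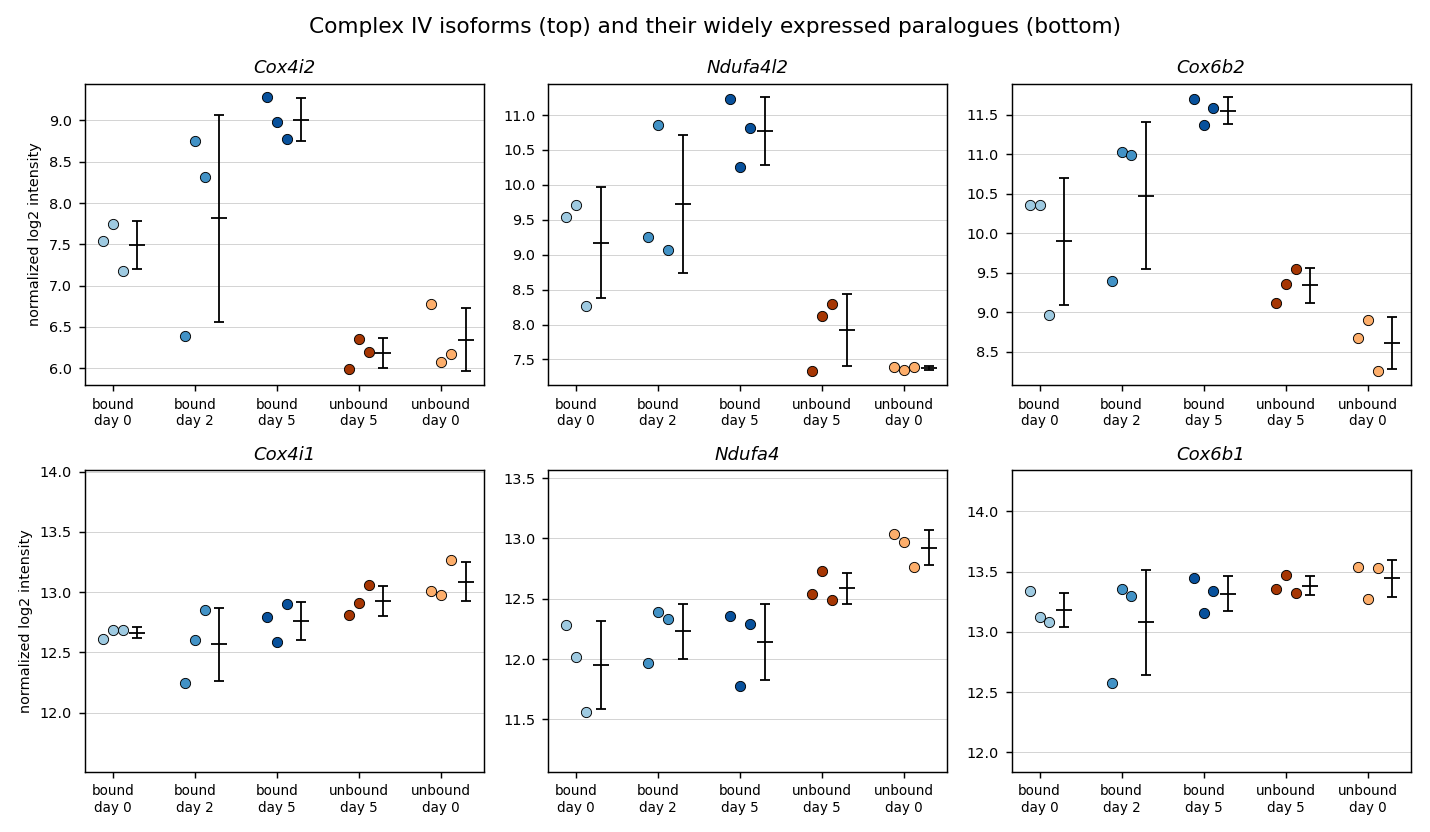
Log2 level of 3 complex IV isoforms (top) and of the widely expressed paralogue of each (bottom) on each array (points), with the mean and SD of each group beside them (n = 3 each); each panel has its own axis. For Cox4i2 and Cox6b2 the 3 bound day 5 arrays lie above all arrays of the other groups, and the paralogues below them spread over about 1 log2 unit or less within each fraction.

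Among the muscle isoforms, Cox7a1, the heart and muscle isoform of subunit 7a, had log2 levels of 8.01, 8.67 and 8.67 in bound day 0, 4.94, 6.80 and 9.66 in bound day 2 and 7.26, 8.21 and 7.34 in bound day 5, against 9.01, 8.48 and 8.78 in unbound day 5 and 9.98, 10.19 and 10.91 in unbound day 0. Unbound day 0 lay above all other groups, yet neither the bound minus unbound difference at day 0 (-1.91) nor the unbound difference of day 5 minus day 0 (-1.60) passed. Cox6a2 differed by -0.55 to 0.48 over all comparisons. Cox8b was at or below the highest negative control on 6 arrays, Cox8c on 10 and Cox7b2 on 13, so their levels are bounds and no fold is given. Of 10 skeletal and cardiac muscle markers, 6 averaged at or below the highest negative control over all arrays. They summed to 410 to 2174 in bound day 0 and 208 to 229 in unbound day 0, and to 290 to 385 in bound day 5 and 151 to 217 in unbound day 5. On each day 1 of 8 tested muscle markers was higher in the bound fraction and none lower, where 4.81% of all genes were higher on day 0 and 6.37% on day 5. The part of muscle cells in the levels of the muscle isoforms was not tested. Ndufb4, an accessory subunit of complex I, was at or below the highest negative control on 8 arrays, and Ndufb1 and Cox7c on 1 each.

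Genes of the neighbouring pathways were read from lists made beside the members. Of 33 further assembly factors and cytochrome c, 4 were lower and none higher in bound day 0 against unbound day 0 (median -0.61), among them Cycs, the somatic cytochrome c (-0.98 ± 0.25, adjusted p = 0.0323), and Tmem70, an assembly factor of ATP synthase (-1.19 ± 0.28, adjusted p = 0.0208). There 4.10% of all genes tested were lower and 4.81% higher. In unbound day 5 against unbound day 0, 4 of the list were lower (median -0.52), where 3.93% of all genes were, led by Ecsit, which helps build complex I (-1.71 ± 0.25, adjusted p = 0.00121). In bound day 5 against bound day 0, 2 were lower and 1 higher (median 0.01), where 9.99% of all genes were lower and 13.7% higher. The lower ones were Ecsit (-1.11, adjusted p = 0.00804) and Uqcc1, an assembly factor of complex III (-0.88, adjusted p = 0.0332), and the higher one was Atpif1, the inhibitor of ATP synthase (0.94 ± 0.26, adjusted p = 0.0227).

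Of 17 genes of the tricarboxylic acid cycle and pyruvate dehydrogenase, 4 were lower in bound day 5 against bound day 0 (median -0.49), where 9.99% of all genes were, and 3 in unbound day 5 against unbound day 0 (median -0.62), where 3.93% were. Suclg1, a subunit of succinyl-CoA synthetase, was 1 of those in both, at -3.03 ± 0.48 (adjusted p = 0.00113) in the bound and -2.90 ± 0.48 (adjusted p = 0.00269) in the unbound fraction, and it was also lower in bound day 2 against bound day 0 (-2.32 ± 0.48, adjusted p = 0.0109). In sham kidney Dlat and Pdhx, subunits of pyruvate dehydrogenase, were lower in the bound fraction (-1.16 and -1.12, adjusted p = 0.00826 and 0.0203).

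Of 16 regulators of mitochondrial biogenesis, 4 were lower and 1 higher in bound day 5 against bound day 0, where 9.99% of all genes were lower and 13.7% higher. Ppargc1a, the coactivator PGC-1α, had log2 levels of 8.10, 9.83 and 7.87 in bound day 5 and 10.04, 11.62 and 11.98 in bound day 0 (-2.61 ± 0.59, adjusted p = 0.00863), and was lower in bound day 5 than in unbound day 5 as well (-2.42 ± 0.59, adjusted p = 0.0207). Its groups did not overlap in either comparison. Esrrg, a nuclear receptor that acts with it, was lower in bound day 5 against bound day 0 (-2.55 ± 0.55, adjusted p = 0.00656), and Nrf1, named after its value was seen because its site was searched above, was higher in bound day 5 than in unbound day 5 (1.17 ± 0.32, adjusted p = 0.0328). Esrra, a receptor of the same family, was lower in bound than in unbound day 0 (-1.26 ± 0.29, adjusted p = 0.0212) and lower in unbound day 5 than in unbound day 0 (-1.10 ± 0.29, adjusted p = 0.0334).

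Of 16 hypoxia response genes, none was higher and 1, Pdk1, lower in bound day 5 against unbound day 5 (median -0.21), where 6.37% of all genes were higher and 7.74% lower. Ndufa4l2 was 7.20-fold higher there, and the part of hypoxia in its level was not tested. Against bound day 0, bound day 5 had 2 higher, Higd1a (1.07 ± 0.33, adjusted p = 0.0365) and Ldha, the muscle-type lactate dehydrogenase subunit (0.55 ± 0.18, adjusted p = 0.0456), and 1 lower, Adm (-1.66 ± 0.37, adjusted p = 0.00804), where 13.7% of all genes were higher and 9.99% lower. Adm, a vasodilator peptide, was 5.21-fold higher in bound than in unbound day 0 (2.38 ± 0.37, adjusted p = 0.00296).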

How the data were processed

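Probe set signals of 15 one-colour arrays (Mouse430 2.0) were used. The authors deposited them as linear intensity values; how probes were summarised, background corrected and scaled is not stated in the labels or file headers, and RNA was amplified in 1 round per the labels' protocols. Array medians ran from 16.4 to 198.7, so log2(value + 1) was quantile normalized over 45101 probe sets. Of these, 34945 named 1 gene. Genes above the 25th percentile on at least 3 arrays were tested (16864 of 18193) with limma 3.58.1 in R 4.3.3, in 1 fit over the 5 groups, for 7 comparisons, with Benjamini-Hochberg adjustment over all genes at 0.05. The number of arrays limits the precision. The highest of 27 negative controls on an array served as its background level.

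The members and the lists beside them were chosen with earlier results of these data known. Named by rule were landmark subunits, paralogous isoforms, assembly factors, and per comparison the 5 largest calls in each direction; of other lists, up to 3 calls. The remaining called members were added after their values were seen. Cox7b was not analysed here. Alternatives were no filter, median centring, cyclic loess, the mean of all probe sets, only the compared groups, a trended and robust prior, a pseudocount of 16, brightness as a covariate, no bright arrays, and each array left out in turn.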

Additional observations from a re-analysis of the deposited data

How the results depend on the processing

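Of 1224 values of named genes under the alternatives, 952 kept direction and call, 261 lost the call, 6 gained it and 5 changed sign. With arrays centred on their medians, calls numbered 3 in bound day 0 against unbound day 0 (12 otherwise), 4 in bound day 5 against bound day 0 (10) and 7 in unbound day 5 against unbound day 0 (11). Over all 16860 genes tested with that centring they numbered 845, 3498 and 1364, in the same order. Medians there were 0.84 in bound day 5 against unbound day 5 (-0.04), 1.25 for the change in enrichment (0.50), 0.51 in bound day 5 against bound day 0 (0.07), 0.52 in bound day 5 against bound day 2 (0.14) and -0.68 in unbound day 5 against unbound day 0 (-0.38). Atp5b in bound day 5 against unbound day 5 became 0.11 and Atp5c1 in bound day 5 against bound day 0 became 0.01. A trended and robust prior called 27, 7, 17 and 25 in bound day 0 against unbound day 0, bound day 2 against bound day 0, bound day 5 against bound day 0 and unbound day 5 against unbound day 0. Over all 16864 genes tested it called 1869, 1963, 4522 and 2100, in the same order. Only the compared groups gave 3 calls for the change, 4 in bound day 5 against bound day 0 and 29 in unbound day 5 against unbound day 0. Over all 16864 genes tested these fits called 338, 2342 and 4254, in the same order. Without the bright arrays calls were 2, 0, 1, 1 and 3 in bound day 0 against unbound day 0, bound day 5 against unbound day 5, bound day 2 against bound day 0, bound day 5 against bound day 0 and unbound day 5 against unbound day 0, with medians of -0.22 in bound day 2 against bound day 0 and 0.31 in bound day 5 against bound day 2. Over all 16521 genes tested without them calls were 335, 0, 511, 2187 and 614, in the same order. The cause was not tested.

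With each array left out in turn, calls ranged from 4 (array 4 or 5) to 27 (array 7) in bound day 0 against unbound day 0, from 0 to 10 (array 7) in bound day 2 against bound day 0, from 1 (array 3) to 16 (array 7) in bound day 5 against bound day 0, from 0 to 1 (array 8) in bound day 5 against bound day 2, from 0 to 1 (array 7) for the change in enrichment and from 3 (array 4 or 13) to 22 (array 7) in unbound day 5 against unbound day 0. Medians ranged from -0.21 to 0.10 in bound day 2 against bound day 0 and from -0.04 to 0.29 in bound day 5 against bound day 2. Counts and medians over all genes with 1 array left out are not given, so these ranges are not read as particular to the list. Single differences ranged from -0.14 to 1.05 for Cox4i2 and from -0.02 to 0.88 for Ndufa4l2 in bound day 2 against bound day 0, and from -0.29 to 0.06 for Cox4i2 in unbound day 5 against unbound day 0. No paired analysis was possible because the labels give no replicate number shared between groups. Genes near the negative controls (Cox7b2, Cox8b, Cox8c and Ndufb4) are limited by signal over background.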

Other observations

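A probe set for ND5, a complex I subunit encoded in mitochondrial DNA and so outside the nuclear list, was named after its values were seen. It had log2 levels of 11.50, 11.94 and 11.20 in bound day 5 and 12.31, 12.99 and 13.03 in bound day 0. The groups did not overlap, and ND5 was lower at day 5 (limma, -1.23 ± 0.33, adjusted p = 0.0203). In the unbound fraction it had 12.67, 12.76 and 12.78 at day 5 and 12.54, 12.62 and 13.65 at day 0, which overlapped. Bound and unbound day 0 overlapped as well. Whether the ND5 signal in the bound fraction came from the tagged ribosomes was not tested, so its change is not read as one of translated RNA.

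Probe sets of 1 gene did not always give 1 direction. Of 49 genes of the list with several probe sets above background, the signs differed between probe sets for 4 in bound day 0 against unbound day 0 and for 17 in bound day 5 against unbound day 5. They differed for 9 in bound day 2 against bound day 0, 10 in bound day 5 against bound day 0 and 16 in bound day 5 against bound day 2. For unbound day 5 against unbound day 0 the number was 3, and for the change in enrichment 5.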
